A study of Mus musculus with 2 samples.

Results

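The 45 genes described here make and use glutathione or remove peroxides, superoxide and quinones. They were chosen as a list by symbol and matched in the files, 45 of 55450 genes, and none was used to sort cells into types. The list holds 22 glutathione transferases, 6 glutathione peroxidases, 4 genes of glutathione synthesis and reduction, 4 of the quinone and thioredoxin system, 3 peroxiredoxins, catalase with 3 superoxide dismutases, and the regulators Nfe2l2 and Keap1, which are not enzymes. The study profiled liver tumours of C57BL/6 mice by droplet 3′ single-cell RNA sequencing after enrichment of live cells, with 1 library per group. In the AKT1.MYC group, hydrodynamic tail vein injection delivered plasmids for Akt1 (10 µg) and human c-Myc (10 µg) with 5 µg of Sleeping Beauty transposase plasmid. The NRAS.MYC.ND group received plasmids for human N-Ras (19 µg) and human c-Myc (1 µg) with 2 µg of transposase plasmid. Tumours of both groups carried c-Myc and were taken 14 weeks after injection. The amounts of plasmid therefore differ along with the oncogene, and the sources used here give neither the meaning of "ND" nor the number of mice behind each library. No untreated liver was among the samples analysed.

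Glutathione is a tripeptide made by glutamate-cysteine ligase and glutathione synthetase, and hepatocytes make more of it than most cells. Transferases join it to toxins and reactive lipids, peroxidases spend it to reduce peroxides, and glutathione reductase returns the oxidised form. Peroxiredoxins reduce peroxides with electrons from thioredoxin. The transcription factor NRF2, the product of Nfe2l2, is held back by KEAP1 and, when released, binds antioxidant response elements in the promoters of many of these genes together with small MAF proteins.

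A promoter sequence was found for 39 of the 45 genes in RefSeq (GRCm38.p6), from 250 bases before the start of the gene to 50 after it. Some genes had several such windows, and a gene was counted if any of its windows matched. The letters TGACNNNGC, the core of the antioxidant response element, stood on either strand in a window of 10 of these 39 genes (25.6%). Over all 27025 genes with a window the share was 14.0%. Both shares are per gene, and the number of windows per gene was not matched. The 10 genes were Gsta3, Gstm5, Gstm7, Mgst1, Gclm, Txnrd1, Srxn1, Prdx1, Sod1 and Nfe2l2. A match describes the letters of the window and does not show a bound site. Of the 5 promoters that follow, those of Gsta3 and Gstm5 belong to genes that differed 2-fold or more between the tumours in both hepatocyte-like cells and phagocytes, those of Gclm and Prdx1 to genes that differed by less than 2-fold in both, and Nfe2l2 is the regulator. Each is the 250 bases before the start, 5′ to 3′ in the direction of the gene, with the match in capitals. Gclm and Prdx1 carry it on the reverse strand. In Prdx1 the reverse strand of the match also holds TGACTCA, the letters of an AP-1 site. The windows are Gsta3 chr1:21240335-21240584 (plus strand, match 121 bases before the start), Gstm5 chr3:107895604-107895853 (plus, 42 bases), Gclm chr3:122245307-122245556 (plus, 134 bases), Prdx1 chr4:116685349-116685598 (plus, 133 bases) and Nfe2l2 chr2:75704664-75704913 (minus, 240 bases).
Gsta3: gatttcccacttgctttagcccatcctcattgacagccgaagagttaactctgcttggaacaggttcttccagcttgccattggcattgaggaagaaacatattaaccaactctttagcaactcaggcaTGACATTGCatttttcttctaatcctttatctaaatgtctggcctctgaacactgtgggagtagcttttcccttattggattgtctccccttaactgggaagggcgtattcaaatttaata
Gstm5: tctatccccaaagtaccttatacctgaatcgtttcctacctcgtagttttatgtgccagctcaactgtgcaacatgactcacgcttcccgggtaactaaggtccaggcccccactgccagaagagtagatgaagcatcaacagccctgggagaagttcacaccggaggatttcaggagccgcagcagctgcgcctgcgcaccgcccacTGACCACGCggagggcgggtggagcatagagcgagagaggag
Gclm: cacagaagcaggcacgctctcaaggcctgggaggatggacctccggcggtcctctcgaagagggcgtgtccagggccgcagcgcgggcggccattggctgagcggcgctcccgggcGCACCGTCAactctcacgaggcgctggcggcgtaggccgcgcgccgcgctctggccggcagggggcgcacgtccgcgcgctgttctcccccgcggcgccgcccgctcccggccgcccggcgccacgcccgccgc
Prdx1: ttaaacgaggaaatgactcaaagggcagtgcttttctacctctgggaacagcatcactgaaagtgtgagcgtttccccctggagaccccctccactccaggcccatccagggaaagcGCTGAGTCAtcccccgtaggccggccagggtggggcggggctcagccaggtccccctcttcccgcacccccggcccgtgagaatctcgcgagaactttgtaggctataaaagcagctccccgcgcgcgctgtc
Nfe2l2: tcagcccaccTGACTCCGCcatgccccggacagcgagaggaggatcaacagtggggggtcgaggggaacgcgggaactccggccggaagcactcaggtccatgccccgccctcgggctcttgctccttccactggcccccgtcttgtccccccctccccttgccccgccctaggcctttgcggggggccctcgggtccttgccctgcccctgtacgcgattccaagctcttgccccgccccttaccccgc

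The AKT1.MYC matrix had 10766 barcodes with 64516171 UMIs in all (unique molecular identifiers, counts of RNA molecules), and the NRAS.MYC.ND library 6312 barcodes and 42416125 UMIs. After filtering, 9398 AKT1.MYC and 5634 NRAS.MYC.ND cells were kept, at medians of 1987 and 4240 UMIs, and 13 barcodes occurred in both libraries. Cells were sorted by UMIs of marker genes. Hepatocyte-like cells numbered 101 in AKT1.MYC, against 366 in NRAS.MYC.ND. All 14 hepatocyte markers were at least 2-fold higher in them than in the other cells of their library. The same markers sorted the cells, so this is no separate check of the class. Duct-like cells numbered 1132 in AKT1.MYC, against 31 in NRAS.MYC.ND, too few to compare, and phagocytes 2889 and 1466. Clustering without the 45 genes put 84 of the AKT1.MYC hepatocyte-like cells in cluster 10 and 13 in cluster 4, a cluster of mostly duct-like cells, and these 13 gave 38.2% of the UMIs of the class. Duct markers summed to 14300 CPM (UMIs of a gene per 1000000 UMIs of the class) in AKT1.MYC hepatocyte-like cells, against 9820 CPM in NRAS.MYC.ND, and hepatocyte markers to 21700 CPM, against 54300 CPM. Values within cluster 10, where both libraries have cells, are therefore given beside those of the class for the genes described at length and for those that lie on another side of 2-fold there. Free RNA was estimated at 11.1% of UMIs in AKT1.MYC, against 6.30% in NRAS.MYC.ND hepatocyte-like cells, and at 16.7% and 6.48% in phagocytes. A level below is the CPM of the summed UMIs of a class. A ratio is log2 of AKT1.MYC over NRAS.MYC.ND unless stated, with an exact 95% interval in parentheses that covers counting error only. With 1 library per group there is no replicate check and no test of any difference.

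Among the 7 AKT1.MYC classes compared, 17 genes were highest in hepatocyte-like and 10 in duct-like cells, 27 of 45 together, where 36.1% of all genes were highest in one of these epithelial classes. Hepatocyte-like cells of NRAS.MYC.ND were highest for 22 of 44, where 19.3% of all genes were. Of the same 45 genes, 27 were at least 2-fold higher in AKT1.MYC hepatocyte-like cells than in AKT1.MYC phagocytes and 0 were lower by that much, where 24.9% and 15.3% of all genes passed in these directions. In NRAS.MYC.ND, 29 of 44 were higher in hepatocyte-like cells and 2, Gpx1 and Gpx3, in phagocytes, against 28.3% and 18.9% of all genes. The transferases made up most of these. Gsta4, an alpha class enzyme that conjugates the lipid aldehyde hydroxynonenal, stood at 121 CPM in AKT1.MYC hepatocyte-like cells against 15.5 CPM in phagocytes, and at 350 against 4.49 CPM in NRAS.MYC.ND. Gclc, the catalytic subunit of glutamate-cysteine ligase and the rate-limiting step of glutathione synthesis, stood at 161 against 35 CPM in AKT1.MYC and 404 against 32.5 CPM in NRAS.MYC.ND. Gss, glutathione synthetase, stood at 129 against 17.8 CPM and 100 against 15.5 CPM. Synthesis genes were thus higher in hepatocyte-like cells of both tumours. Other members had their highest level elsewhere. Gsr, glutathione reductase, was highest in neutrophils of both libraries, at 685 CPM in AKT1.MYC and 1800 CPM in NRAS.MYC.ND, with phagocytes next at 152 and 228 CPM. Gpx3, the secreted glutathione peroxidase, was highest in fibroblast and stellate cells of AKT1.MYC, at 1320 CPM against 92.4 CPM in phagocytes, the next class, and NRAS.MYC.ND held 40 cells of that class, too few to compare. Nfe2l2 was not highest in an epithelial class of either library.

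**Figure D1:**
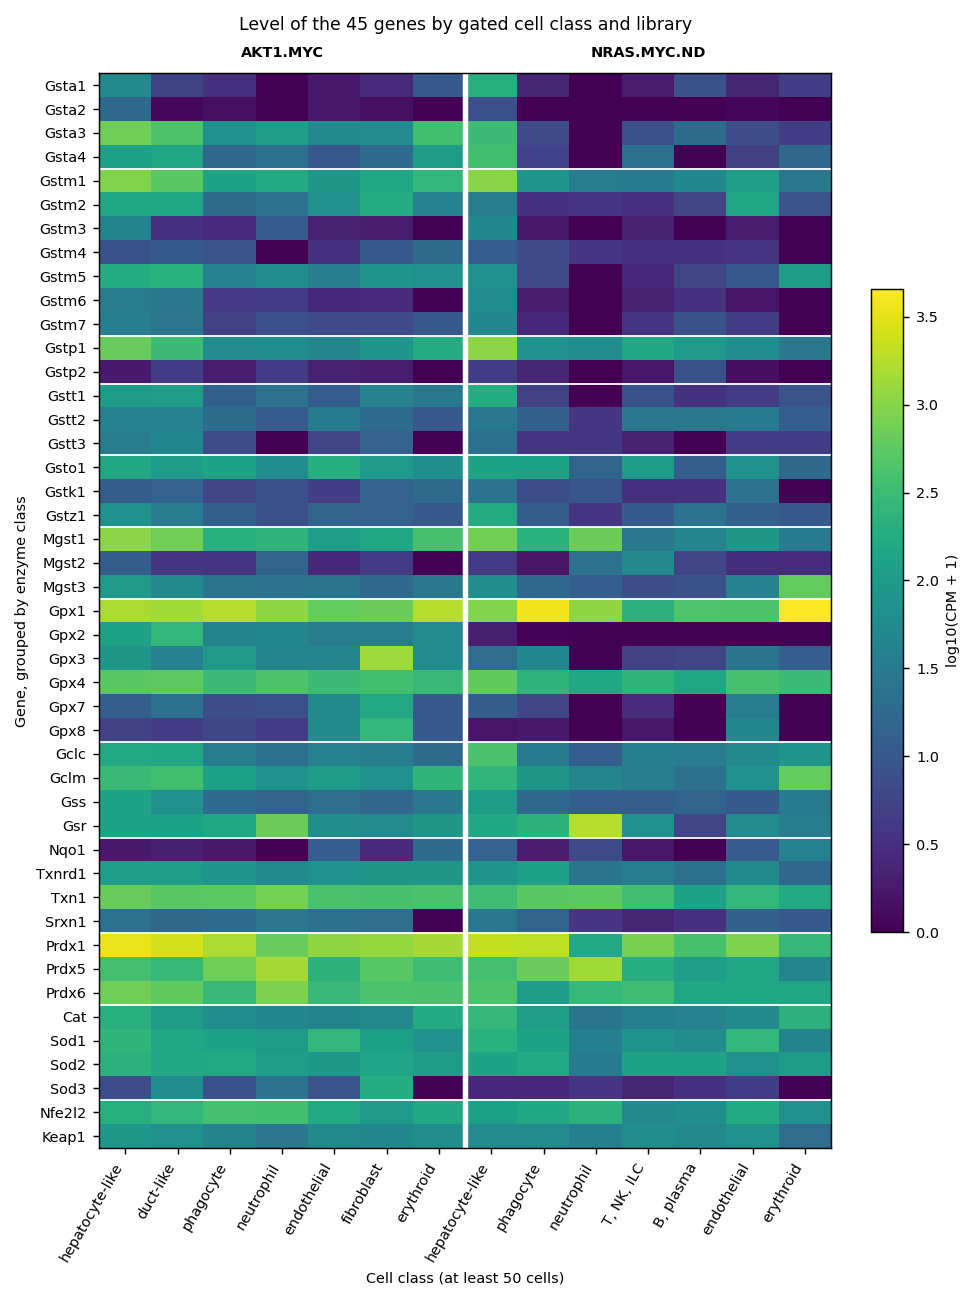
Level of the 45 genes as log10(CPM + 1) in each cell class with at least 50 cells, AKT1.MYC classes on the left and NRAS.MYC.ND classes on the right. Brighter colours are higher levels. Most transferases are brightest in the epithelial columns, Gsr in the neutrophil columns, and Gpx3, Gpx7, Gpx8 and Sod3 in the fibroblast and stellate column of AKT1.MYC.

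In hepatocyte-like cells, members past 2-fold lay to both sides, as did those among all genes. Of 44 genes with at least 10 UMIs, 8 were 2-fold or more higher in AKT1.MYC, 7 stood lower there by as much and 29 differed less, where 11.8% of all 12872 measured genes passed upward and 14.2% downward. With cycling cells left out, 5 were higher. The median ratio of the 44 was 0.30, against 0.06 over all genes. The 8 were the transferases Gsta2, Gsta3, Gstm2, Gstm5 and Mgst2, the peroxidases Gpx2 and Gpx3, and Sod3. The 7 with more in NRAS.MYC.ND were Gsta1, Gsta4, Gstk1, Gstz1 and Gstp2, with Gclc and Nqo1. Gpx8 had 5 and 3 UMIs and was not measured.

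**Figure D2:**
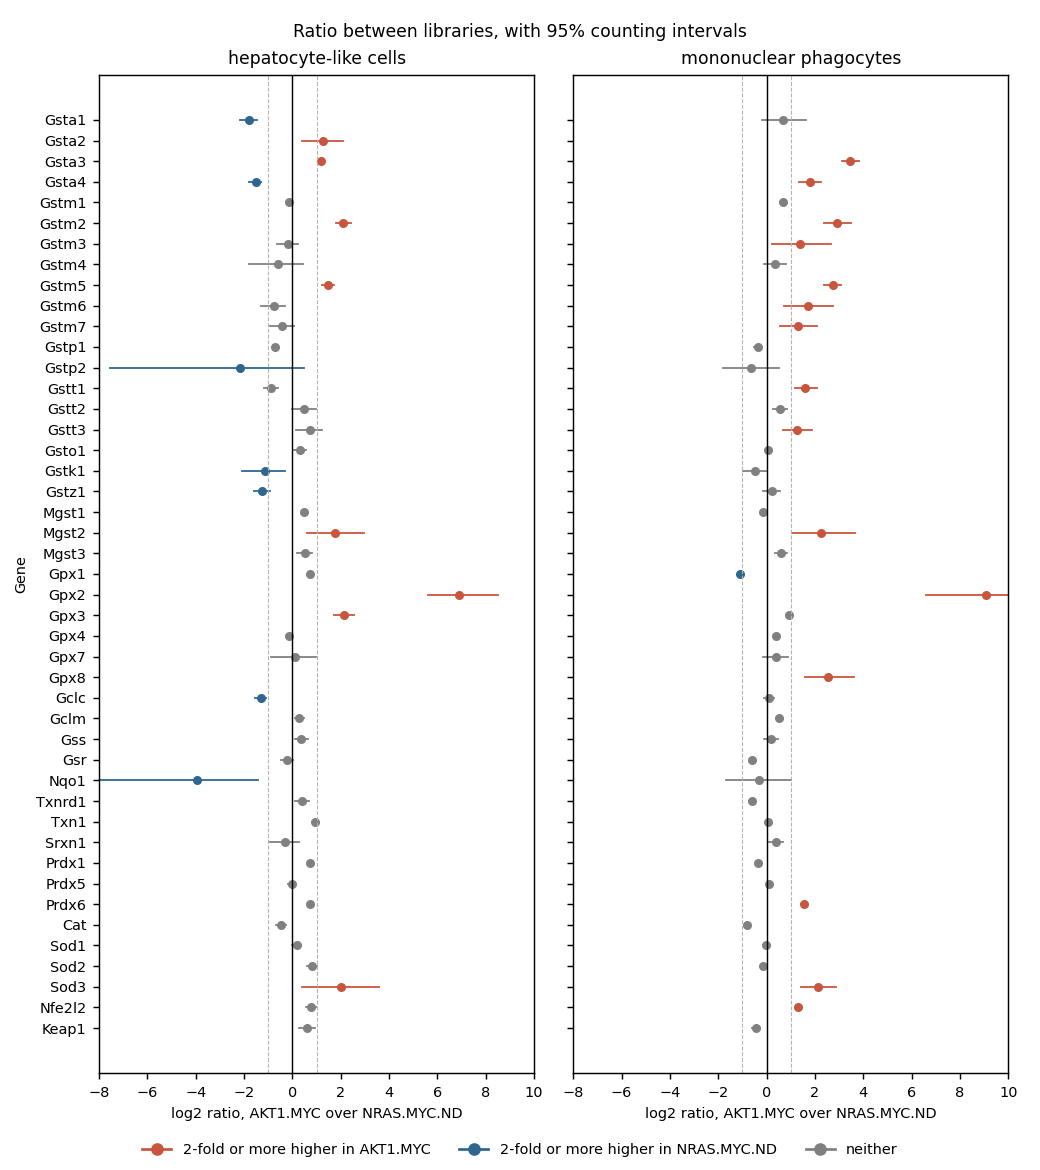
Log2 ratio of AKT1.MYC over NRAS.MYC.ND for each gene in hepatocyte-like cells and in phagocytes, with 95% counting intervals. Dashed lines mark 2-fold, and intervals that run past the axis are cut at its edge. Gpx2 stands farthest to the AKT1.MYC side in both classes, and Nqo1 farthest to the NRAS.MYC.ND side in hepatocyte-like cells on 1 and 62 UMIs.

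Within the alpha class of transferases, the tumours differed in opposite directions. Gsta3, which in mouse liver detoxifies aflatoxin epoxide, stood at 729 CPM in AKT1.MYC against 322 CPM in NRAS.MYC.ND, a ratio of 1.18 (1.06 to 1.30). In cells of cluster 10 alone the levels were 734 and 251 CPM. Gsta4 went the other way, with 121 against 350 CPM (-1.53, -1.79 to -1.29), and with 102 against 377 CPM in cluster 10. Both kept their direction in every setting tried. Gsta1 stood at 55.5 against 194 CPM (-1.81, -2.19 to -1.45), and at 63.0 against 226 CPM in cluster 10, but this rests on few cells, as given below. Of the 50-base stretches at the 3′ end of its transcripts, 90.0% also occur in Gsta2 or in predicted genes, so the split of reads between these genes is uncertain. Gsta2 (62.1% shared) stood at 16.6 against 6.89 CPM.

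The mu class genes lie side by side on chromosome 3 (GRCm38), from Gstm5 at 107895821 to the end of Gstm4 at 108044894, and did not move together. Gstm2 stood at 150 CPM in AKT1.MYC against 34.6 CPM in NRAS.MYC.ND (2.11, 1.80 to 2.43), and at 61.5 against 18.6 CPM in cluster 10. Its 5 highest AKT1.MYC cells held 66.9% of its UMIs and 22.0% of those of the class, and the ratio was 0.72 with equal weight per cell and 0.63 with cells thinned to equal depth. Gstm5 stood at 185 against 67.2 CPM (1.46, 1.21 to 1.71) and, in cluster 10, at 146 against 72.0 CPM. Their neighbour Gstm1, among the most counted of the transferases, was near equal at 933 against 1020 CPM (-0.13, -0.22 to -0.03). Ratios of Gstm3, Gstm4, Gstm6 and Gstm7 lay between -0.78 and -0.20. Gstm3 turned round in cluster 10, at 51.5 against 12.4 CPM. Among other transferases, Gstz1, which also isomerises maleylacetoacetate in tyrosine breakdown, stood at 72.9 against 174 CPM (-1.26, -1.59 to -0.94), but at 80.1 against 133 CPM in cluster 10, under 2-fold. Gstk1, found in mitochondria and peroxisomes, stood at 10.8 against 23.6 CPM (-1.13, -2.08 to -0.30), and at 4.29 against 21.5 CPM in cluster 10. Gstp1, the pi class enzyme, stood at 639 against 1060 CPM (-0.73, -0.84 to -0.62) and passed 2-fold in cluster 10, at 545 against 1100 CPM, with 78.0% of its 3′ stretches shared with Gstp2 and a pseudogene. Gstp2 itself had 1 UMI in AKT1.MYC, against 18 in NRAS.MYC.ND. The membrane-bound Mgst1 stood at 1040 against 745 CPM (0.48, 0.39 to 0.58) and Mgst2 at 10.8 against 3.13 CPM. Theta and omega class genes (Gstt1, Gstt2, Gstt3 and Gsto1) had ratios of -0.87 to 0.71.

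Of 5 measured glutathione peroxidases, 2 passed 2-fold toward AKT1.MYC and 0 toward NRAS.MYC.ND. Gpx2, best known from gut epithelium, stood at 123 CPM (148 UMIs) in AKT1.MYC hepatocyte-like cells against 1.04 CPM (5 UMIs) in NRAS.MYC.ND, a ratio of 6.88 (5.62 to 8.52). Its AKT1.MYC level in cluster 10 was 53.0 CPM, within the 34.4 to 56.4 CPM measured in the 5 classes of that library that are not epithelial, and its NRAS.MYC.ND level there was 1.24 CPM. Thinned to 1228 UMIs per cell, 7.06% (2.63 to 14.7) of AKT1.MYC hepatocyte-like cells had a Gpx2 UMI, against 0 of 335 NRAS.MYC.ND cells (32.7% and 1.37% before thinning, which left out 16 and 31 cells). AKT1.MYC phagocytes, which should lack the gene, had it in 6.61% (5.62 to 7.71) of cells at the same depth, so the share in hepatocyte-like cells was not above that background. With free RNA subtracted its level was 117 CPM in AKT1.MYC hepatocyte-like cells and 12.1 CPM in phagocytes. Gpx3 stood at 85.3 against 19.6 CPM (2.12, 1.70 to 2.54) and at 125 against 22.5 CPM in cluster 10. Its AKT1.MYC level lay within the 44.8 to 1320 CPM of the 5 classes of that library that are not epithelial. The 5 AKT1.MYC hepatocyte-like cells with the most Gpx3 held 45.6% of its UMIs. Without the top 5 cells of each library the levels were 51.3 CPM in AKT1.MYC and 14.1 CPM in NRAS.MYC.ND. With free RNA subtracted they were 76.6 and 18.5 CPM. Gpx1, the common cytosolic peroxidase, stood at 1540 against 931 CPM (0.72, 0.64 to 0.80), and at 1710 against 875 CPM in cluster 10. Gpx4, which reduces phospholipid hydroperoxides, was near equal at 524 against 576 CPM, and 89.9% of its 3′ stretches also occur in pseudogenes.

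The enzymes of glutathione synthesis did not go together. Gclc stood at 161 CPM in AKT1.MYC against 404 CPM in NRAS.MYC.ND (-1.32, -1.54 to -1.11), and at 173 against 446 CPM in cluster 10. Its ratio lay between -1.77 and -0.95 over all settings. The modifier subunit Gclm, which raises the activity of the same ligase, stood at 309 against 253 CPM (0.29, 0.12 to 0.46). Gss stood at 129 against 100 CPM (0.37, 0.10 to 0.63) and Gsr at 131 against 154 CPM (-0.24, -0.49 to 0.01). Only Gclc of these 4 passed 2-fold. Nqo1, a quinone reductase often used as a readout of NRF2, had 1 UMI in AKT1.MYC, against 62 in NRAS.MYC.ND, or 0.828 against 12.9 CPM (-3.97, -9.29 to -1.43). In cells thinned to equal depth it was seen in 0 of 85 AKT1.MYC cells, which allows up to 4.25%, and in 1.49% of NRAS.MYC.ND cells, so the difference was not detectable at that depth. Txnrd1, thioredoxin reductase, stood at 107 against 81.8 CPM (0.38, 0.09 to 0.68) and Srxn1, which repairs overoxidised peroxiredoxins, at 23.2 against 28.6 CPM (-0.30, -0.94 to 0.29).

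Prdx1, Prdx6 and both regulators were higher in AKT1.MYC by less than 2-fold. Prdx1, the cytosolic peroxiredoxin, stood at 3480 CPM in AKT1.MYC against 2120 CPM in NRAS.MYC.ND (0.72, 0.67 to 0.77), and at 2780 against 1960 CPM in cluster 10. Prdx6, which also acts on phospholipids, stood at 728 against 435 CPM (0.74, 0.63 to 0.86), and Txn1, thioredoxin, at 632 against 334 CPM (0.92, 0.79 to 1.04). Prdx5 was equal, at 368 against 371 CPM. Of the superoxide dismutases, the mitochondrial Sod2 stood at 223 against 127 CPM (0.81, 0.60 to 1.02) and passed 2-fold in cluster 10, at 199 against 98.5 CPM. The cytosolic Sod1 stood at 243 against 216 CPM and the extracellular Sod3 at 6.62 against 1.67 CPM on 8 UMIs in each library. Cat, the peroxisomal catalase, stood at 196 against 274 CPM (-0.48, -0.69 to -0.28). Nfe2l2 stood at 196 against 115 CPM (0.77, 0.54 to 0.99), with 182 against 121 CPM in cluster 10, and Keap1 at 88.6 against 57.8 CPM (0.62, 0.28 to 0.94), so the message of the factor and of its inhibitor lay to the same side.

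A few cells held much of the count of some of these genes. In NRAS.MYC.ND, the 5 hepatocyte-like cells with the most Gsta1 held 563 of its 930 UMIs (60.5%), with 227 and 158 in the highest cells, while those 5 cells held 3.57% of the UMIs of the class. Gsta1 was seen in 54 of the 366 cells. In AKT1.MYC the top 5 cells held 61.2% of 67 UMIs. Without these cells the levels were 25.5 CPM in AKT1.MYC and 79.4 CPM in NRAS.MYC.ND, so the direction held. With all cells thinned to equal depth, however, 8.24% (3.38 to 16.2) of AKT1.MYC cells and 5.07% (2.98 to 8.00) of NRAS.MYC.ND cells had a Gsta1 UMI, and the ratio of the thinned counts turned to 1.05. The higher Gsta1 level in NRAS.MYC.ND thus lay in a small number of cells. Gclc and Gsta4 were spread more widely: their top 5 cells held 34.9% and 43.8% of UMIs in AKT1.MYC, against 23.3% for each in NRAS.MYC.ND. In thinned cells Gclc was seen in 9.41% (4.15 to 17.7) of AKT1.MYC and 21.2% (16.9 to 26.0) of NRAS.MYC.ND cells, Gsta4 in 9.41% and 23.0%, and Gsta3 in 56.5% (45.3 to 67.2) and 26.0% (21.4 to 31.0). These shares had the same direction as the levels. Before thinning they were 45.5% and 62.3% for Gclc, 44.6% and 53.8% for Gsta4, 77.2% and 58.5% for Gsta3, and 17.8% and 14.8% for Gsta1, at median depths of 4492 UMIs in AKT1.MYC and 7186.5 UMIs in NRAS.MYC.ND cells. In phagocytes thinned to the same depth, where these enzymes are low, the shares were 4.71% and 4.46% for Gclc, 1.98% and 0.920% for Gsta4, 9.60% and 0.708% for Gsta3, and 0.396% and 0.283% for Gsta1.

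**Figure D3:**
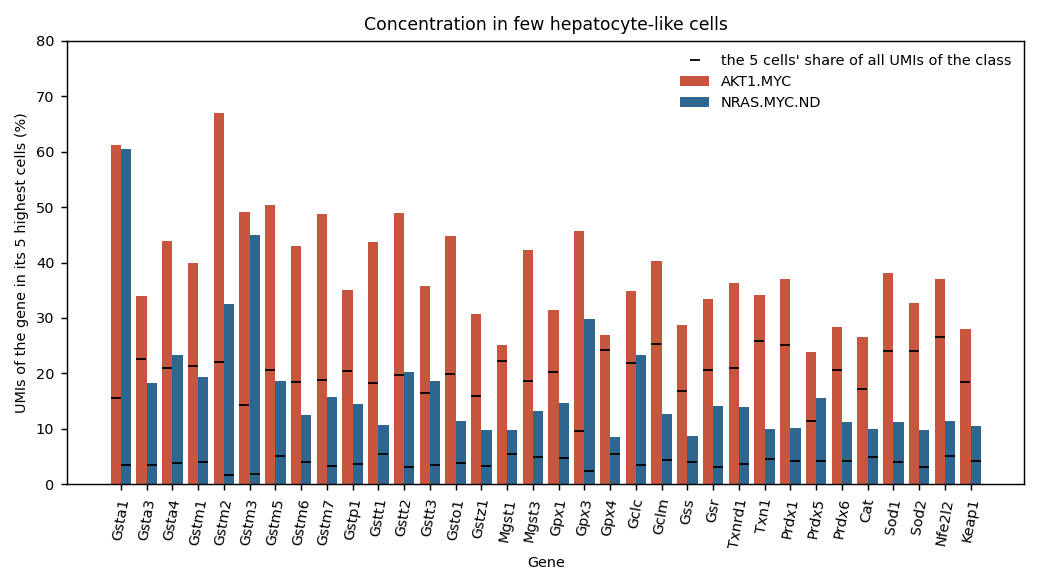
Share of a gene's UMIs held by its 5 highest hepatocyte-like cells, AKT1.MYC in red and NRAS.MYC.ND in blue, with a black dash for the share of all UMIs of the class that the same cells hold. The Gsta1 bars stand at 61.2% and 60.5%, far above the dashes at 15.6% and 3.57%.

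Within the NRAS.MYC.ND tumour, hepatocyte-like cells formed a pair of clusters with different transferases. Cluster 25 held 109 cells at a median of 2576 UMIs and cluster 10 held 212 at 16672.5. Of 42 members with enough UMIs, 11 were 2-fold or more higher in cluster 25 and 4 in cluster 10, where 9.46% and 34.1% of all genes passed in these directions, and the median log2 ratio of cluster 25 over cluster 10 was 0.48 against -0.53 over all genes. Gstm3 stood at 319 CPM in cluster 25 against 12.4 CPM in cluster 10 (4.69, 4.23 to 5.17), Gstm2 at 153 against 18.6 CPM (3.04, 2.59 to 3.50) and Gstm1 at 2640 against 818 CPM (1.69, 1.60 to 1.78). Gstm4, Gstm7, Gsta2, Gstt2 and Gstt3 were higher in cluster 25 as well. Mu class genes thus made up 5 of the 11. Gsta3 stood at 886 against 251 CPM (1.82, 1.66 to 1.97), Gstz1 at 486 against 133 CPM and Sod2 at 323 against 98.5 CPM. Lower in cluster 25 were Gsta1, at 26.9 against 226 CPM (-3.07, -3.88 to -2.36), Gclc, at 205 against 446 CPM (-1.12, -1.40 to -0.86), Txnrd1, at 35.3 against 90.1 CPM, and Gpx3, with 1 UMI against 91. Gclm (0.78, 0.57 to 0.99) lay to the side of cluster 25 while Gclc lay to that of cluster 10. Beside these genes, Cyp2e1 and Glul, which mark hepatocytes near the central vein, stood at 525 against 25 CPM and 239 against 34.1 CPM, and Nras at 1310 against 1610 CPM. Depth differed between the clusters too, and its part in these values was not tested.

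**Figure D4:**
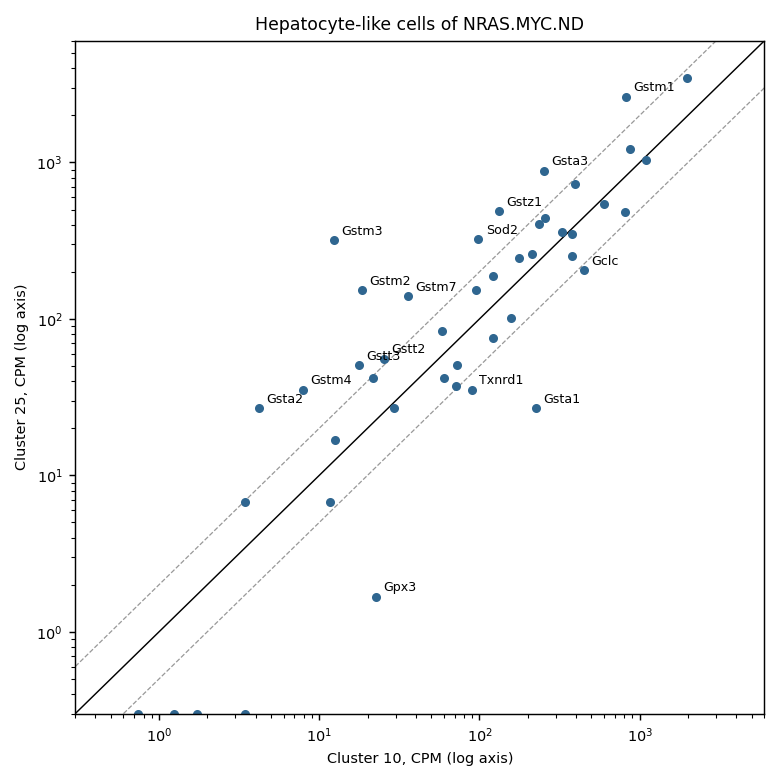
Level of each gene in NRAS.MYC.ND hepatocyte-like cells of cluster 25 (vertical axis) and cluster 10 (horizontal axis), in CPM on log axes, with the line of equal level and dashed lines at 2-fold. Genes past 2-fold are named, and genes with 0 UMIs in cluster 25 sit on the lower edge. Gstm3 lies highest above the lines and Gpx3 and Gsta1 below them.

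Most members in AKT1.MYC duct-like cells stood within 2-fold of AKT1.MYC hepatocyte-like cells, while some transferases were low. Over AKT1.MYC hepatocyte-like cells, 3 of 45 members were at least 2-fold higher in duct-like cells and 6 lower, where 10.6% and 8.04% of all genes passed, with a median log2 ratio of -0.28 against 0.11 over all genes. The higher ones were Sod3, at 61.8 CPM in duct-like against 6.62 CPM in hepatocyte-like cells (3.22, 2.24 to 4.44), Gpx2, at 263 against 123 CPM (1.10, 0.87 to 1.35), and Gstp2. The lower ones were Gsta1, at 4.67 against 55.5 CPM (-3.57, -4.02 to -3.11), Gstm3, at 2.40 against 43.9 CPM (-4.20, -4.76 to -3.63), Gsta2, Gstz1, Mgst2 and Gpx3. In AKT1.MYC hepatocyte-like cells of cluster 10 alone Gpx2 stood at 53.0 CPM and Gstm2 at 61.5 CPM, against which the 157 CPM of Gstm2 in duct-like cells lies past 2-fold. Cat, at 225 CPM in cluster 10 against 104 CPM in duct-like cells, and Mgst3, at 106 against 52.4 CPM, passed 2-fold the other way. Gstk1 stood at 4.29 CPM, on 3 UMIs, against 13.1 CPM in duct-like cells, and Gstp2 had 0 UMIs in cluster 10. Gclc, Gclm, Gsr, Txnrd1, Prdx1 and Prdx6 differed by less than 2-fold. Thinned to 3191 UMIs, 45% (41.9 to 48.1) of duct-like cells had a Gpx2 UMI, against 11.2% (9.54 to 13.0) of AKT1.MYC phagocytes at that depth. Its level varied among the duct-like clusters, from 104 CPM in cluster 15 (97 cells) and 136 CPM in cluster 19 (181 cells) to 275 CPM in cluster 4 (699 cells) and 428 CPM in cluster 20 (74 cells). Gclc ran otherwise, at 229, 73.5, 143 and 40.0 CPM in the same clusters. Against hepatocyte-like cells of NRAS.MYC.ND, 8 members passed 2-fold upward in AKT1.MYC duct-like cells and 10 downward, where 20.9% and 14.4% of all genes passed. Gclc was among the lower, at 140 against 404 CPM (-1.53, -1.61 to -1.45), and Nfe2l2 among the higher, at 260 against 115 CPM (1.17, 1.05 to 1.30).

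In phagocytes Nfe2l2, Prdx6 and Gpx1 passed 2-fold between the tumours both before and after free RNA was subtracted. Nfe2l2 stood at 361 CPM in AKT1.MYC against 149 CPM in NRAS.MYC.ND (1.28, 1.20 to 1.36), the highest class of AKT1.MYC for this gene together with neutrophils at 351 CPM. Thinned to 1019 UMIs, 30.9% (29.0 to 32.7) of AKT1.MYC phagocytes had a UMI of it, against 14.2% (12.4 to 16.1) in NRAS.MYC.ND. Before thinning, at medians of 2725 and 7420 UMIs, the shares were 60.2% and 60.8%, and thinning left out 403 and 32 cells. Among clusters with at least 50 phagocytes it ranged from 238 to 467 CPM in AKT1.MYC and stood at 143, 228 and 109 CPM in NRAS.MYC.ND clusters 3, 11 and 22. Smaller clusters were not measured. Keap1 lay to the other side, at 42.4 against 57.0 CPM (-0.43, -0.59 to -0.27). Prdx6 stood at 302 against 105 CPM (1.53, 1.44 to 1.62) with a UMI in 26.7% (25 to 28.5) of thinned cells against 10.2% (8.66 to 11.9). Its clusters overlapped, with 148 CPM in AKT1.MYC cluster 24 against 211 CPM in NRAS.MYC.ND cluster 11. Gpx1 was lower in AKT1.MYC, at 1760 against 3740 CPM (-1.08, -1.11 to -1.06), with a UMI in 71.3% (69.5 to 73.1) of thinned cells against 90.4% (88.8 to 91.9). The highest cluster was the Kupffer-like cluster 22 of NRAS.MYC.ND, at 6260 CPM. In AKT1.MYC, clusters 0 and 8 stood at 1480 and 2250 CPM, and cluster 24, also Kupffer-like, at 2710 CPM. Without cells that carry Kupffer markers the Gpx1 ratio was -0.78, under 2-fold. With free RNA subtracted the levels were 385 and 150 CPM for Nfe2l2, 250 and 92.3 CPM for Prdx6 and 1860 and 3930 CPM for Gpx1, close to those before.

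Counted over the list, 15 of 44 members measured in phagocytes reached 2-fold in AKT1.MYC over NRAS.MYC.ND and 1, Gpx1, the reverse, where 17.1% and 9.45% of all 15364 measured genes passed. The median ratio was 0.39 against 0.10 over all genes. Of the 15, 10 were transferases, and Nfe2l2 and Prdx6 were among the rest. Gsta3 stood at 66.6 against 6.06 CPM (3.46, 3.12 to 3.81), Gstm2 at 18.4 against 2.44 CPM (2.92, 2.37 to 3.51), Gstm5 at 40.9 against 6.14 CPM (2.74, 2.39 to 3.10), Gsta4 at 15.5 against 4.49 CPM and Gpx2 at 42.5 against 0.0787 CPM, on 555 and 1 UMIs. In hepatocyte-like cells of the same library each of these 5 stood higher. With free RNA subtracted, Gsta4, Gstm2, Gpx8 and Sod3 were at 0 in both libraries, Gsta3 at 9.0 against 0.933 CPM, Gstm5 at 15.4 against 4.74 CPM and Gpx2 at 12.1 against 0 CPM. Over the whole list 8 members then passed 2-fold toward AKT1.MYC and 6 toward NRAS.MYC.ND, with a median of 0.02. The shares and the median over all genes after subtraction were not computed, so these counts have no background beside them. Synthesis and recycling genes differed little: Gclc stood at 35 against 32.5 CPM (0.11, -0.09 to 0.30), Gclm at 122 against 84.7 CPM (0.52, 0.41 to 0.64) and Gss at 17.8 against 15.5 CPM. Gsr stood at 152 against 228 CPM (-0.59, -0.67 to -0.51), with 699 CPM in NRAS.MYC.ND cluster 11, led by Ccr2 and Ly6c2, genes of monocytes. Txnrd1 stood at 78.7 against 121 CPM (-0.62, -0.74 to -0.51), with 314 CPM in the Kupffer-like cluster 22, and its ratio was 0.53 without cells carrying Kupffer markers. Gpx3 stood at 92.4 against 48.4 CPM (0.93, 0.79 to 1.07), Srxn1 at 18.2 against 14.1 CPM, Prdx1 at 1570 against 2030 CPM (-0.37, -0.40 to -0.35) and Cat at 61.8 against 107 CPM (-0.79, -0.92 to -0.67). Nqo1 had 10 and 12 UMIs.

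**Figure D5:**
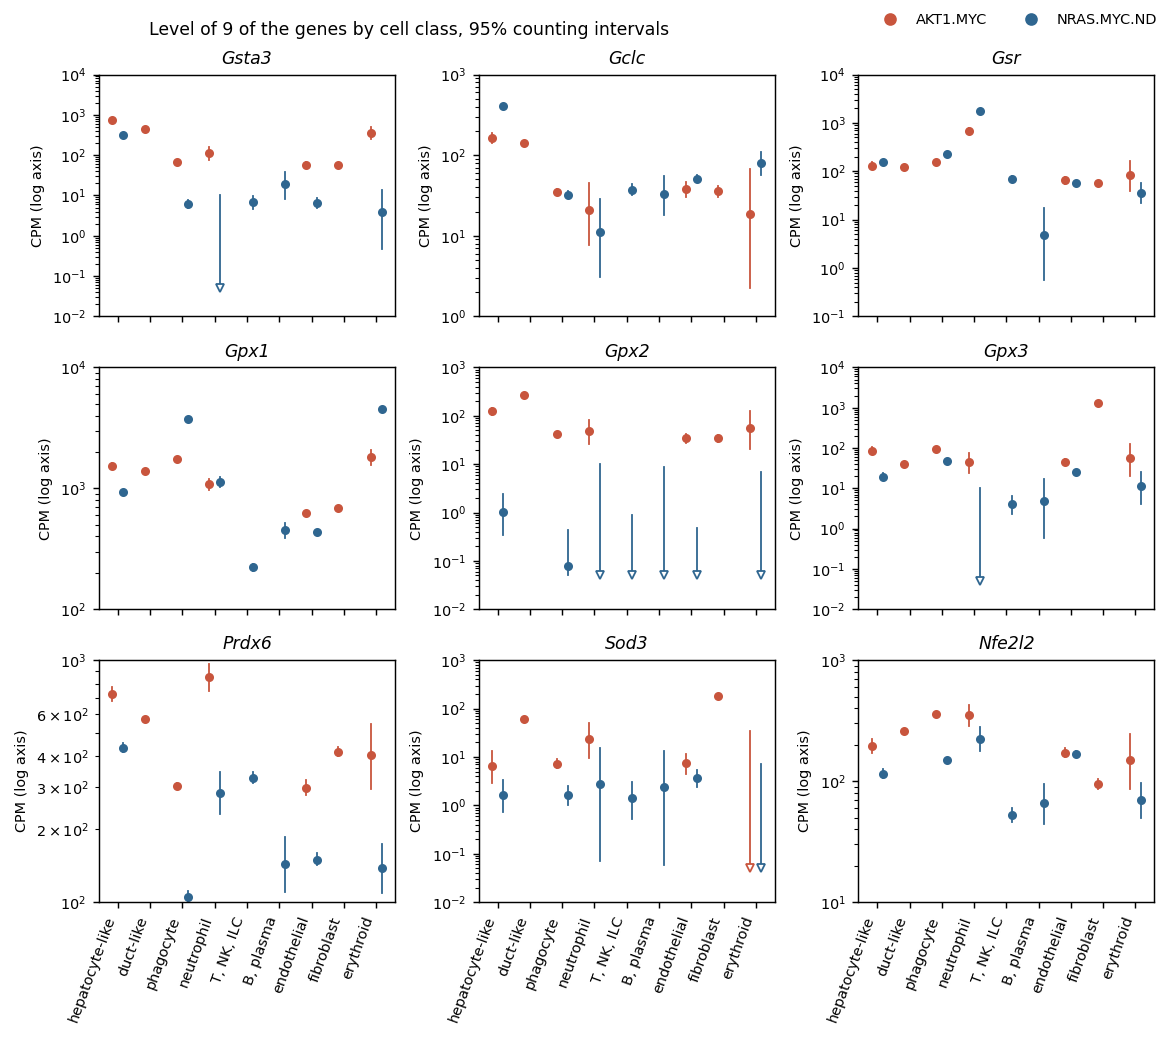
Level of 9 genes by cell class in AKT1.MYC (red) and NRAS.MYC.ND (blue), in CPM on log axes that differ between panels, with 95% counting intervals. Open triangles mark 0 UMIs with the interval's upper limit, and classes with fewer than 50 cells in a library are left out. Gpx2 lies at 34.4 CPM or higher in every AKT1.MYC class shown, and Gsr is highest in neutrophils.

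Neutrophils were 119 of the 1083 AKT1.MYC cells of cluster 2, with few from elsewhere, and 143 of the 306 NRAS.MYC.ND cells of cluster 16. Neutrophil markers summed to 93100 CPM in AKT1.MYC against 299000 CPM in NRAS.MYC.ND. The leading genes of the class included Elane and Mpo in AKT1.MYC, and Ngp and Olfm4 in NRAS.MYC.ND. The part of this difference in make-up in the values below was not tested. Of the 25 members with enough UMIs, 13 passed 2-fold toward AKT1.MYC and 2 toward NRAS.MYC.ND, where 32.4% and 11.5% of all genes passed. Prdx6 stood at 851 CPM in AKT1.MYC against 283 CPM in NRAS.MYC.ND (1.59, 1.25 to 1.94) and Prdx1 at 644 against 163 CPM (1.99, 1.55 to 2.44). Gsr was lower, at 685 against 1800 CPM (-1.39, -1.63 to -1.16), as was Mgst1, at 241 against 681 CPM (-1.50, -1.90 to -1.11). Prdx5, found in mitochondria and peroxisomes, was highest in neutrophils of both libraries and near equal, at 1470 against 1350 CPM. Free RNA was estimated at 29.1% of UMIs in AKT1.MYC neutrophils and 8.97% in NRAS.MYC.ND neutrophils. With it subtracted Prdx6 stood at 974 against 287 CPM, Gsr at 893 against 1950 CPM and Mgst1 at 130 against 720 CPM, while Prdx1, at 59.0 against 38.9 CPM, was no longer past 2-fold. Nfe2l2 stood at 351 against 224 CPM (0.65, 0.21 to 1.09).

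Endothelial cells, 265 in AKT1.MYC, against 768 in NRAS.MYC.ND, had 7 of 42 members past 2-fold toward AKT1.MYC and 2 toward NRAS.MYC.ND, where 9.38% and 12.4% of all genes passed. The libraries differed in the clusters behind the class: cluster 12, led by Angpt2 and Apln, gave 77.8% of its UMIs in AKT1.MYC, and cluster 6 gave 62.9% and cluster 17 gave 36.7% in NRAS.MYC.ND. Gsto1, which reduces dehydroascorbate, stood at 187 against 75.7 CPM (1.30, 1.12 to 1.48). Gstk1 stood at 3.57 against 23.0 CPM (-2.69, -3.84 to -1.73) and Gstm2 at 68.6 against 144 CPM (-1.07, -1.31 to -0.84). Gsta3, Gsta4, Gstm5, Gstt1 and Gpx2, each higher in AKT1.MYC here, were also higher in its phagocytes. After free RNA was subtracted, phagocyte levels were 0 CPM in both libraries for Gsta4 and 0 in AKT1.MYC against 0.901 CPM in NRAS.MYC.ND for Gstt1. With free RNA subtracted, endothelial levels were 16.4 against 3.17 CPM for Gsta3, 0 against 0.245 CPM for Gsta4, 18.1 against 8.07 CPM for Gstm5, 1.81 against 1.13 CPM for Gstt1 and 13.3 against 0 CPM for Gpx2. Gpx2 had 87 UMIs in AKT1.MYC, against 0 in NRAS.MYC.ND, a log2 ratio of at least 6.45 against a floor of 3 counts. Nfe2l2 was equal, at 172 against 169 CPM (0.03, -0.13 to 0.19). In erythroid cells 15 of 26 members passed 2-fold toward AKT1.MYC and 5 toward NRAS.MYC.ND, where 30.9% and 20.7% of all genes passed, but free RNA was estimated at 52.3% of UMIs in the AKT1.MYC cells and 9.34% in the NRAS.MYC.ND cells, and its part in these counts was not tested. The 5 were Gpx1, at 1800 against 4540 CPM (-1.34, -1.56 to -1.12), Mgst3, at 28.2 against 601 CPM, Gclm, at 244 against 619 CPM, Gclc and Nqo1. Fibroblast and stellate cells of AKT1.MYC had the highest levels of Gpx7 and Gpx8, peroxidases of the endoplasmic reticulum, at 158 and 265 CPM, and of Sod3, at 181 CPM. In NRAS.MYC.ND, endothelial cells were highest for Gpx7 and Gpx8, at 33.7 and 47.8 CPM.

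Other genes of the pathway were followed as lists. Of 22 NRF2 targets outside the 45 genes, 6 passed 2-fold toward AKT1.MYC in hepatocyte-like cells, 3 toward NRAS.MYC.ND and 13 in no direction, with a median ratio of 0.25, where 11.8% and 14.2% of all genes passed and their median was 0.06. Cbr3, a carbonyl reductase, stood at 84.4 against 5.64 CPM (3.91, 3.28 to 4.57), Akr1b8, an aldo-keto reductase, at 58.8 against 6.05 CPM (3.28, 2.64 to 3.96), and Me1, malic enzyme, and Tkt, transketolase, at 167 against 23.8 CPM and 520 against 173 CPM. Slc7a11, the cystine carrier that supplies cysteine for glutathione, lay the other way with Gclc, at 6.62 against 52.6 CPM (-2.99, -4.22 to -1.99). NRF2 targets past 2-fold lay to both sides, and the count toward NRAS.MYC.ND was near the share of all genes. Of 9 measured NRF2 partners and regulators, 0 passed toward AKT1.MYC and 2 toward NRAS.MYC.ND, among them the repressor Bach2 at 1.66 against 15.2 CPM, on 2 and 73 UMIs. Of 20 measured genes of glutathione turnover and precursors, 3 passed toward AKT1.MYC and 2 toward NRAS.MYC.ND. Ggt1, which breaks down extracellular glutathione, stood at 26.5 against 0.835 CPM on 32 and 4 UMIs, and Ggct at 89.4 against 30.1 CPM (1.57, 1.20 to 1.94). Of 20 other thiol and peroxide enzymes, 2 passed toward AKT1.MYC and 1 toward NRAS.MYC.ND. In phagocytes, 3 of the 22 NRF2 targets passed toward AKT1.MYC and 1 toward NRAS.MYC.ND, where 17.1% and 9.45% of all genes passed. These included Me1, at 28.2 against 0.472 CPM, Akr1b8, at 24.6 against 5.91 CPM, and Ephx1, an epoxide hydrolase, at 19.6 against 53.7 CPM. Of 10 partners and regulators there, 1 (Maff, a small MAF protein) passed toward AKT1.MYC and 1 toward NRAS.MYC.ND, and of 21 turnover genes 3 and 1. Of the 20 other thiol genes the counts were 2 and 1, the 2 being the metallothioneins Mt1, at 2880 against 591 CPM, and Mt2, at 338 against 42.1 CPM. The part of free RNA in these list genes was not tested. Between clusters of NRAS.MYC.ND hepatocyte-like cells, 2 of 22 NRF2 targets were 2-fold or more higher in cluster 25 and 12 in cluster 10, where 9.46% and 34.1% of all genes passed. Among the 12 were Slc7a11, with 1 UMI against 217, and Ephx1, at 23.5 against 228 CPM. The cysteine and methionine enzymes Cth and Mat1a were higher in cluster 25, at 294 against 35.4 CPM and 404 against 101 CPM.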

How the data were processed

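The deposited matrices give whole-number counts of UMIs for each gene in each barcode, not normalized, per the file headers and values. The submitters' processing notes name mm10 and Cell Ranger 6.1.2, and the header of the matrices names 6.1.1. No source used here gives the annotation release. No deposited barcode held fewer than 500 UMIs. The 45 genes, the markers and the further gene lists were chosen with earlier results of these data known.

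Cells with at least 500 UMIs, at least 250 genes and a mitochondrial share of up to 20% were kept. Scrublet's automatic threshold marked 0% of cells in either library, so the highest scores up to 0.8% per 1000 barcodes were removed instead, 912 cells of AKT1.MYC and 327 of NRAS.MYC.ND. A cell entered a class when over 50% of the class's markers (123 in all) had a UMI and the marker share of its UMIs was at least 3 times the library's 25th percentile and at least 5 per mille. Where several classes passed, the highest fraction had to lead by 20 points, otherwise the cell was left out as ambiguous. No class was found for 4103 AKT1.MYC and 1263 NRAS.MYC.ND cells. The cut points were set after the depth was seen. Leiden clusters were computed over both libraries without the 45 genes (2000 variable genes, 30 components, 15 neighbours, resolution 1.0).

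UMIs were summed per class and library. The 95% intervals are exact Poisson for levels in CPM, conditional binomial (exact) for ratios and Clopper-Pearson for shares of cells. A gene needed 10 UMIs over both sides to be measured and a ratio of 2-fold or more to be counted. A count of 0 was bounded by 3 counts. Thinning drew every cell of a class down to 1 depth, the 10th percentile in that class. Free RNA was estimated per class from markers of other classes and subtracted in an alternative. Members named in every comparison had at least 50 CPM and an interval between libraries excluding 2-fold in hepatocyte-like cells or phagocytes. To these were added 9 pathway genes fixed by name. Genes of further lists were named at 30 UMIs or more and among the 5 largest ratios per direction excluding 2-fold. Others are named by their role. The ratio step was tested on simulated counts. Positions are from GENCODE vM21 and promoters from RefSeq. Python 3.11.15, NumPy 2.4.6, pandas 2.3.3, SciPy 1.17.1, Scanpy 1.11.5, leidenalg 0.10.2 and Matplotlib 3.10.9 were used.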

Additional observations from a re-analysis of the deposited data

Results flagged for a closer look

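A pair of transferases lay to opposite sides in different cell classes, each time past 2-fold. Gsta4 was lower in AKT1.MYC than in NRAS.MYC.ND hepatocyte-like cells (log2 ratio -1.53) but higher in AKT1.MYC phagocytes (1.79) and endothelial cells (1.21). Gstm2 was higher in AKT1.MYC hepatocyte-like cells (2.11) and phagocytes (2.92) and lower in AKT1.MYC endothelial cells (-1.07). Whether the ratios differ between classes was not tested, since each group is 1 library. With free RNA subtracted, both genes stood at 0 CPM in phagocytes of AKT1.MYC and of NRAS.MYC.ND, Gsta4 at 0 against 0.245 CPM in endothelial cells, and Gstm2 at 61.6 against 151 CPM in endothelial cells. The Gstm2 ratio in hepatocyte-like cells was 0.72 with equal weight per cell and 0.63 in cells thinned to equal depth, both under 2-fold, and its 5 highest AKT1.MYC cells held 66.9% of its UMIs.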

How the results depend on the processing

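No paired analysis was possible because each group is 1 library. Ratios of the members named in every comparison were followed over the other settings. In hepatocyte-like cells 206 of these ratios moved by less than their counting error, as did 193 in duct-like cells and 199 in phagocytes. In the same classes 44, 40 and 51 moved by more. The unmoved ratios include those under a minimum of 30 UMIs per member, a setting that cannot change a single ratio. They also include those with shared barcodes left out, which removed few or no cells of a class. The numbers of unmoved ratios therefore overstate how stable these ratios are. Counts and medians over the whole list are not among these ratios and are given below. Of the members followed that were past 2-fold in hepatocyte-like cells, Gsta1 changed direction, to 1.05 when cells were thinned to equal depth. Some members under 2-fold changed sign to a value outside that interval, and the counting error of the new value itself was not weighed. Thinning moved Srxn1 to 0.49 in hepatocyte-like cells and -0.33 in phagocytes. Free RNA subtraction moved Gclc to -0.49 and Gss to -0.65 in phagocytes, and Txnrd1 in phagocytes was 0.53 without Kupffer-gated cells. In duct-like cells Nqo1 was -2.23 with classes taken from clusters and Gpx1 0.14 without cycling cells. Leaving out cycling cells gave 5 members higher in AKT1.MYC hepatocyte-like cells in place of 8. In phagocytes the number higher in NRAS.MYC.ND, 1 in the report, was 2 with equal weight per cell, 2 in thinned cells, 6 with free RNA subtracted and 0 without Kupffer-gated cells. Subtracting free RNA also gave 8 members higher in AKT1.MYC in place of 15, and a median of 0.02 in place of 0.39. Equal weight per cell gave 5 members higher in duct-like and 10 in hepatocyte-like cells of AKT1.MYC, in place of 3 and 6. Shares over all genes were not computed in these settings, and the cause of these changes was not tested. Taking cluster 10 alone and leaving out Kupffer-gated cells or shared barcodes was chosen after seeing the data. Depth limits the hepatocyte-like comparison, with 1207906 UMIs in AKT1.MYC, against 4791292 in NRAS.MYC.ND, and the neutrophil and erythroid comparisons, which rest on fewer.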
